A study of Mus musculus with 4 samples.

Results

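Foxd3, Tfap2c and Bcl11a are transcription factor genes whose loci carried some of the longest stretches of DNA marked by both H3K27me3 and H3K4me3 in mouse rosette stem cells. Histone marks had been mapped by chromatin immunoprecipitation and sequencing in rosette stem cells of 2 embryonic stem cell lines, CGR8 (strain 129/Ola) and R1 (strain 129), with 1 library of each line and mark. All 4 libraries came from cells kept for 8 days in N2B27 medium with LIF, 2 µM IWP2, which blocks WNT secretion, and 1 µM PD325901, a MEK inhibitor, and no untreated or other cell state was analysed here. The members are all called regions that overlap a window at each gene on mouse build mm9: chromosome 4 from 99300001 to 99340000 for Foxd3, chromosome 2 from 172360001 to 172390000 for Tfap2c, and chromosome 11 from 23950001 to 24090000 for Bcl11a. They number 31 of 76945 regions in the 4 lists, of which 7 are H3K27me3 regions of CGR8, 7 H3K27me3 regions of R1, 8 H3K4me3 regions of CGR8 and 9 H3K4me3 regions of R1. The windows were chosen by the measured length of these stretches, since they hold 3 of the 4 longest under both marks, so length and overlap are given below as description, without a test. The gene names belong to the windows as they were chosen, and no mm9 annotation was used here to place the genes inside them.

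H3K27me3 is deposited by Polycomb repressive complex 2 and accompanies silent or weakly active developmental genes, while H3K4me3, deposited by COMPASS-type methyltransferases, marks the promoters of active genes. Promoters under both marks are called bivalent. They are common at developmental regulators in pluripotent cells and usually lie over CpG-rich DNA. Foxd3 encodes a forkhead factor that works in pluripotent cells and later in the neural crest. Tfap2c encodes AP-2 gamma, a regulator of trophoblast and primordial germ cells, and Bcl11a encodes a zinc finger factor known from blood and nervous system development. In pooled chromatin, both marks on the same chromosomes and each mark in different cells cannot be told apart.

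The promoter sequences are shown because CpG-rich promoters are the usual place of such overlaps. RefSeq promoter windows of 300 bases, from 250 before to 50 after the annotated start on build GRCm38.p6, were found for Foxd3 and Bcl11a, on the plus strand at chr4:99656049-99656348 and chr11:24080445-24080744. Capitals mark the CpG dinucleotides. Positions were not converted between the builds, so the place of these windows within the marked stretches on mm9 was not measured.
Foxd3: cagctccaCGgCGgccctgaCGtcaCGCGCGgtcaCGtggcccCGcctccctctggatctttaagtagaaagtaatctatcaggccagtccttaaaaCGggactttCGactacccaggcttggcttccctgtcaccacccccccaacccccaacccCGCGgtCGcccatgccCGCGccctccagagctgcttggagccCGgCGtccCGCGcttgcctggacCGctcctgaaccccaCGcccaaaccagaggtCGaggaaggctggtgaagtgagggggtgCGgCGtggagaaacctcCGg
Bcl11a: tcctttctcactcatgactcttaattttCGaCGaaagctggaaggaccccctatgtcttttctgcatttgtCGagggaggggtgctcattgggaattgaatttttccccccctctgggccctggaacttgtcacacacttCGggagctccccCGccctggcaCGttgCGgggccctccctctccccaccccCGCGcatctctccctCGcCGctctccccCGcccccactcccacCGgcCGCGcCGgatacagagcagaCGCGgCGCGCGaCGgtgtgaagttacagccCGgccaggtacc

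The Foxd3 promoter held 25 CpG dinucleotides at 65.7% GC, and the Bcl11a promoter held 23 at 63.0% GC. The median over all 32851 promoters of the table was 7 CpG at 52.7% GC, and 81.6% and 78.5% of promoters had fewer CpG than Foxd3 and Bcl11a. Among 8 related genes, the Foxd2 promoter held 26 CpG, Foxd1 15 and Foxd4 12. For the relatives of Bcl11a and Tfap2c, Bcl11b held 9, Tfap2e 17 and Tfap2b 8, and the 2 listed Tfap2a promoters held 11 and 15. For Tfap2d, 3 promoters were listed with 5, 5 and 10 CpG. Of 5 promoter motifs searched on both strands, 4 were found in 1 of the printed windows each, and no matches overlapped. The Foxd3 window held 1 cyclic AMP response element (TGACGTCA), found in 1.79% of all promoters. It also held 1 E-box (CACGTG), found in 7.15%. The Bcl11a window held 2 matches to the GC box (GGGCGG), found in 35.7%. It also held 1 CCAAT box (CCAAT), found in 37.4%. A TATA box (TATAAA) was in neither window and in 13.6% of promoters. The motifs were chosen after the sequences were seen.

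Bases called for both marks in both lines were taken as a stretch, and the genome held 6308 of them with a median length of 1400 bp. At Foxd3 the longest ran on chromosome 4 from 99319601 to 99327800, which is 8.2 kb or 41 windows of 200 bp, the grid on which all regions were called. At Tfap2c it ran on chromosome 2 from 172371001 to 172379400, and at Bcl11a on chromosome 11 from 23974201 to 23982600, each 8.4 kb or 42 windows. By length the Tfap2c and Bcl11a stretches shared rank 2 and Foxd3 held rank 4, between 5.86 and 6 times the median. A stretch of 8.6 kb on chromosome 18 from 83078201 to 83086800 was longer, and the next shorter one, on chromosome 2 from 146659201 to 146666400, measured 7.2 kb. All 3 members exceeded 8000 bp, as did 0.0634% of all stretches. This is the property by which they were chosen.

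**Figure D1:**
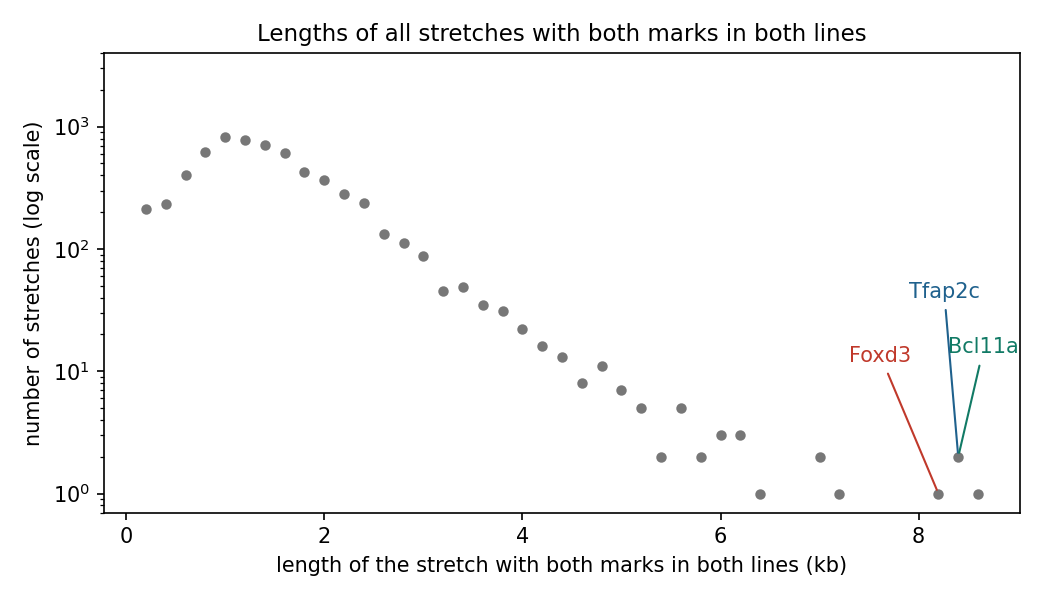
Number of stretches (log scale) at each length in kb, for all 6308 stretches under both marks in both lines. Foxd3 (8.2 kb), Tfap2c and Bcl11a (8.4 kb each) lie past the gap above 7.2 kb, with 1 further stretch of 8.6 kb.

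Each end of the long stretches was an end of an H3K4me3 region. Over all stretches the median share taken, as a mean of the lines, was 88.5% of the H3K4me3 region and 14.1% of the H3K27me3 region. How often H3K4me3 set the ends over all stretches was not counted. The left end was the start of the CGR8 H3K4me3 region at all 3 genes. The right end was the end of H3K4me3 in both lines at Foxd3 and of R1 H3K4me3 at Bcl11a. At Tfap2c the R1 regions of both marks ended at the same base. Within single lines the stretch measured 8.2 kb in CGR8 and 8.4 kb in R1 at Foxd3, 9.0 kb and 8.6 kb at Tfap2c, and 8.6 kb and 8.8 kb at Bcl11a. The SD between the lines was 0.141 kb at Foxd3, 0.283 kb at Tfap2c and 0.141 kb at Bcl11a (n = 2).

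Across the windows, 5 of 7 H3K27me3 regions overlapped H3K4me3 in CGR8 and 5 of 7 in R1, where 41.3% and 48.8% of all H3K27me3 regions did. Of the H3K27me3 regions that hold the long stretches, 3 of 3 in CGR8 and 2 of 3 in R1 had at least 50% of their length under H3K4me3, against 2.89% and 4.61% of all. Of the H3K4me3 regions, 7 of 8 (CGR8) and 7 of 9 (R1) lay at least partly under H3K27me3, against 28.2% and 29.1% of all. The windows were picked for this overlap, so nothing is read from these counts.

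At Foxd3 the stretch lay close to the middle of a broad H3K27me3 region that held more than 1 block of H3K4me3. Its bounds were 99314801 and 99332400 in CGR8, a width of 17.6 kb. In R1 they were 99315001 and 99330400, a width of 15.4 kb. The stretch took 46.6% of it in CGR8 and 53.2% in R1, a mean of 49.9% ± 4.71 (SD, n = 2), with its centre at 50.6% and 56.5% of the region's width. On its left, 4800 bp (CGR8) and 4600 bp (R1) of H3K27me3 remained, and on its right 4600 bp and 2600 bp.

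Shorter H3K4me3 regions stood on either side of the long one at Foxd3. The left one spanned 99316401 to 99319200 in CGR8, and in R1 it stopped at 99318800. The right one spanned 99328801 to 99330600 in CGR8, with both bounds 200 bp lower in R1. These 3 H3K4me3 regions lay whole inside H3K27me3 in each line, against 22.5% of all H3K4me3 regions in CGR8 and 22.9% in R1. Together they put 72.7% of the H3K27me3 region under H3K4me3 in CGR8 and 81.8% in R1. Their gaps to the long region's stretch were 400 and 1000 bp in CGR8 and 800 bp on both sides in R1. The left-hand region stood at score percentile 56.1 in CGR8 and 53.7 in R1, and the right-hand one at 33.1 and 21.5. One more H3K4me3 region, from 99307801 to 99310200, was called in R1 alone, outside H3K27me3, at percentile 19.6 of the R1 scores.

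At Tfap2c both marks covered nearly the same bases. In CGR8, H3K27me3 covered 9.8 kb, 172370601 to 172380400, and H3K4me3 covered 9.0 kb, 172371001 to 172380000. In R1, H3K27me3 covered 8.6 kb, 172370801 to 172379400, and H3K4me3 covered 8.8 kb, 172370601 to 172379400. The stretch took 85.7% of the H3K27me3 region in CGR8 and 97.7% in R1, a mean of 91.7% ± 8.46 (SD, n = 2). The H3K27me3 region reached beyond the stretch by 400 bp on the left and 1000 bp on the right in CGR8, and by 200 and 0 bp in R1. In R1 the H3K4me3 region began 200 bp before the H3K27me3 region, so that 97.7% of it lay under H3K27me3, while in CGR8 all of it did.

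A second H3K27me3 region with no H3K4me3 lay to the left of the Tfap2c stretch in each line. The CGR8 call spanned 172360601 to 172369200, and the R1 call 172361801 to 172369800. Its score stood at percentile 72.4 in CGR8 and 52.0 in R1, below the region that holds the stretch, at 92.6 and 91.3. The remaining member was a short H3K4me3 region from 172389001 to 172390000 in both lines, free of H3K27me3, at percentile 21.4 in CGR8 and 11.8 in R1.

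At Bcl11a the H3K4me3 regions matched between the lines and the H3K27me3 regions did not end at the same place. In CGR8, H3K27me3 covered 13.4 kb, 23972601 to 23986000, and H3K4me3 covered 8.6 kb, 23974201 to 23982800. In R1, H3K27me3 covered 27 kb, 23972801 to 23999800, and H3K4me3 covered 8.8 kb, 23973801 to 23982600. The starts were 200 bp apart and the ends 13800 bp. The stretch took 62.7% of the H3K27me3 region in CGR8 and 31.1% in R1, a mean of 46.9% ± 22.3 (SD, n = 2). Its centre lay at 43.3% of the region's width in CGR8 and 20.7% in R1, with 3400 and 17200 bp of H3K27me3 to its right.

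The wider Bcl11a window held 3 further H3K27me3 regions in each line. The nearest, which held no H3K4me3, spanned 23958801 to 23969800 in CGR8, while the R1 call spanned 23959001 to 23972000. In R1 it ended 800 bp before the region with the stretch, the smallest gap between neighbours in either H3K27me3 list. The other pair, from 23941801 to 23952800 and from 24060201 to 24068600 in CGR8, each held 1 short H3K4me3 region that overlaps the window. The first of them had 2000 bp under H3K4me3 in CGR8, part of it in a region outside the window. In R1 these ran from 23942601 to 23953000 and from 24059601 to 24074600, again with 1 short H3K4me3 region each. The short regions in the window were called in both lines, giving stretches of 800 bp and 1600 bp from 23949401 and 24063401, ranks 4839 and 1910 by length.

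**Figure D2:**
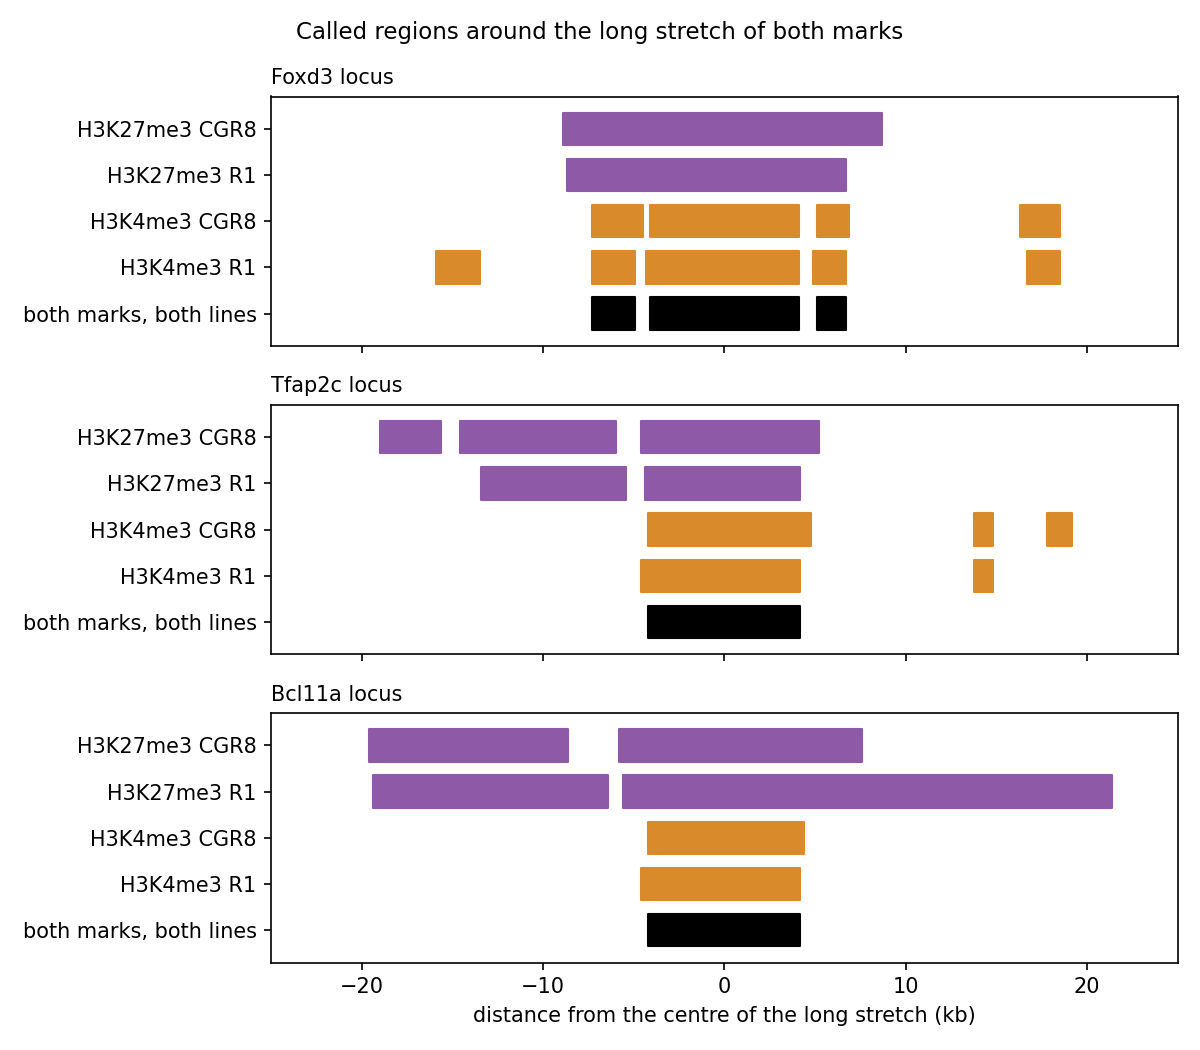
Called regions of each library (bars, 1 row per library) against the distance in kb from the centre of the long stretch at each gene, with stretches under both marks in both lines in black. The long stretch fills the H3K27me3 region at Tfap2c (85.7% in CGR8, 97.7% in R1), is flanked by shorter blocks at Foxd3, and lies at one end of a 27 kb region in R1 at Bcl11a.

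The mean share of the H3K27me3 region taken, 91.7% at Tfap2c, lay above that of 99.8% of stretches, the Foxd3 mean of 49.9% above 97.0%, and the Bcl11a mean of 46.9% above 96.4%. Over all stretches the median share was 12.8% in CGR8 and 14.7% in R1. The share depends on the length that chose the genes, and carries no test. Tfap2c alone of the 3 took at least 50% of its region in both lines, as did 1.98% of all stretches (125 of 6308).

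**Figure D3:**
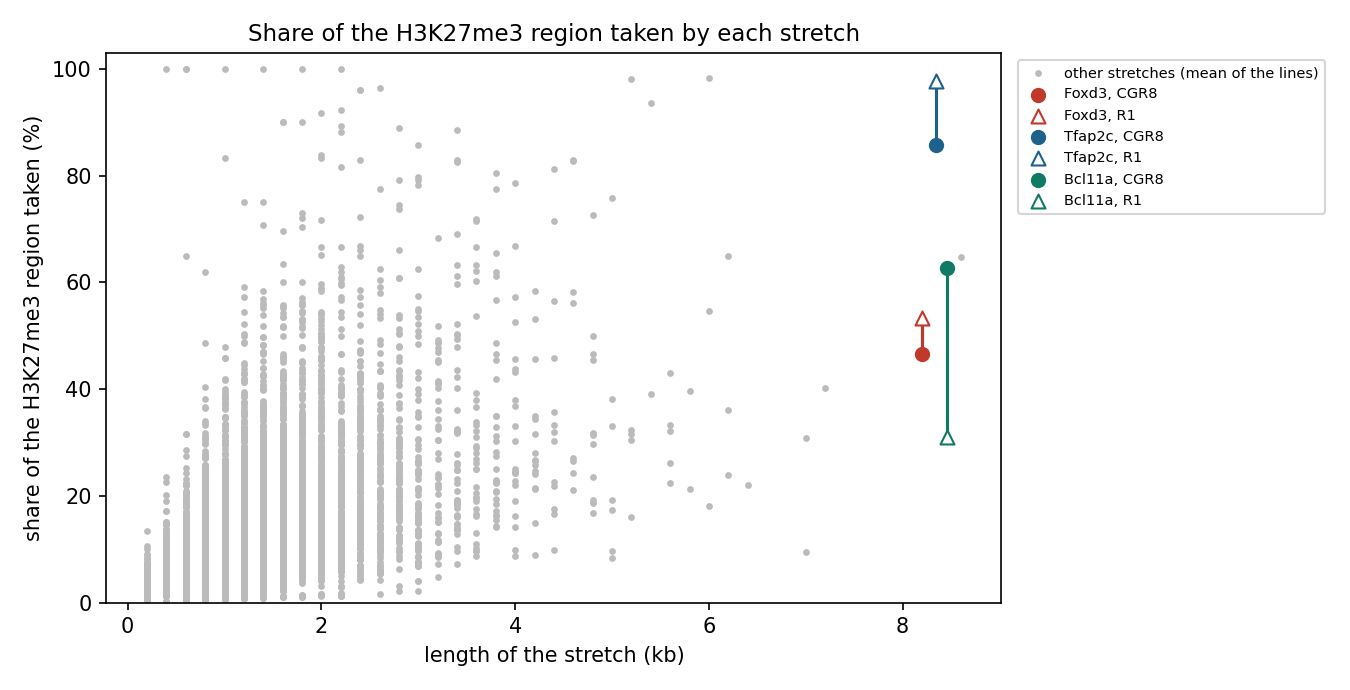
Share of the H3K27me3 region taken by a stretch (%) against the length of the stretch in kb, as the mean of the lines for other stretches (grey) and per line for the members (filled circle CGR8, open triangle R1, joined by a line; Tfap2c and Bcl11a, of equal length, are drawn slightly apart). Tfap2c stands at 85.7% and 97.7% and Foxd3 at 46.6% and 53.2%, while Bcl11a spans 62.7% in CGR8 to 31.1% in R1.

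H3K4me3 at these genes was among the widest of the lists, and its score per kb was near the middle. Each stretch lies within a single H3K4me3 region, so the choice by stretch length fixed a large width in advance. The score is not divided by width, so its rank and percentile also carry that choice. The widths of 8.2 to 9.0 kb exceeded 99.2% to 99.5% of H3K4me3 regions of the same library, at a median width of 2000 bp in each. At Foxd3 the authors' score of the long H3K4me3 region was 2785 in CGR8 and 2284 in R1, ranks 1682 of 25241 and 2378 of 24618. At Tfap2c it was 2229 in CGR8 and 2328 in R1, ranks 2713 and 2274. At Bcl11a it was 2134 in CGR8 and 2281 in R1, ranks 2953 and 2383. The mean score percentile was 91.8 ± 2.12 at Foxd3, 90.01 ± 1.07 at Tfap2c and 89.3 ± 1.43 at Bcl11a (SD, n = 2), and neighbours in this order overlapped between the lines. Per kb the percentiles were 64.2 (CGR8) and 56.5 (R1) at Foxd3, 56.6 and 55.9 at Tfap2c and 56.7 and 55.5 at Bcl11a.

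For H3K27me3 the order of the genes depended on the measure. The region at Foxd3 scored 654 in CGR8 and 859 in R1, ranks 1122 of 14575 and 547 of 12511. The region at Tfap2c scored 678 in CGR8 and 582 in R1, ranks 1073 and 1084. The region at Bcl11a scored 547 in CGR8 and 1041 in R1, ranks 1468 and 397. By score the mean percentiles of 94.0 ± 2.35 at Foxd3, 92.0 ± 0.921 at Tfap2c and 93.4 ± 4.88 at Bcl11a (SD, n = 2) did not separate the genes, whose values in the lines overlapped. By score per kb Tfap2c led in both lines, at percentile 96.9 in CGR8 and 96.1 in R1. Foxd3 stood at 83.5 and 92.5 and Bcl11a at 86.5 and 81.3, and these overlapped. The Tfap2c region was also the narrowest, at percentile 69.3 of width in CGR8 and 70.5 in R1.

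Set against H3K27me3 regions of nearly the same width (within 10%), the Tfap2c region scored above 98.5% of 1732 CGR8 regions and 97.6% of 1554 R1 regions. The Foxd3 region scored above 66.7% of 570 CGR8 regions and 85.7% of 490 R1 regions. The Bcl11a region scored above 80.1% of 1006 in CGR8, but above 37.2% of 121 in R1.

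**Figure D4:**
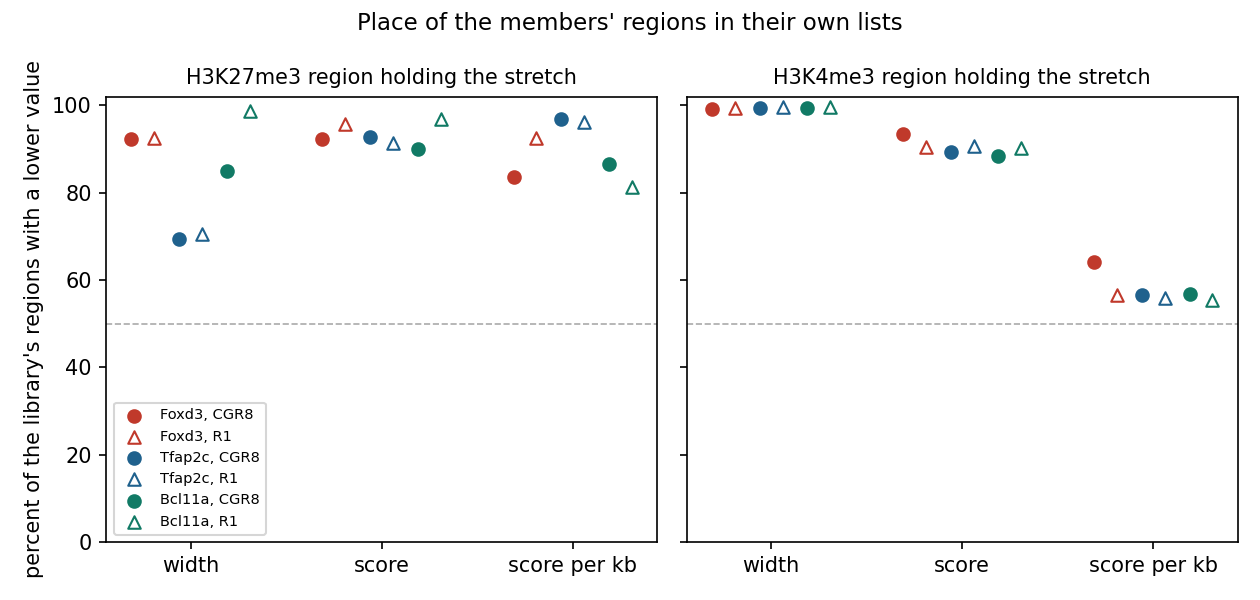
Percent of regions of the same library with a lower width, score or score per kb than the region holding the stretch, for H3K27me3 (left) and H3K4me3 (right), with CGR8 as filled circles, R1 as open triangles and 50% as the dashed line. H3K4me3 widths lie above 99% in all 3 genes and both lines, which follows from the choice by stretch length. Its score per kb lies between 55.5% and 64.2%.

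The scores can be restated in reads. Scores of the shortest regions matched minus the natural log of the Poisson probability of the reads, summed over windows of 200 bp, with a mean of 2.11 reads per window in CGR8 and 1.92 in R1 for H3K27me3, and 0.740 and 0.706 for H3K4me3. Reads spread evenly over the Foxd3 H3K27me3 region would need to number 8.48 per window in CGR8 and 10.4 in R1 to give its score, 4.02 and 5.40 times the mean. At Tfap2c these folds were 5.88 in CGR8 and 6.09 in R1, and at Bcl11a 4.26 and 4.31. For H3K4me3 they were 34.4 in CGR8 and 30.2 in R1 at Foxd3, 27.2 and 29.6 at Tfap2c, and 27.2 and 29.1 at Bcl11a. The R1 H3K27me3 mean rests on 2 regions of at most 400 bp, and it also accounted for all 6 regions of 600 bp. These are restated scores and not counted reads, and the folds of the marks also carry the difference between antibodies.

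Wide H3K4me3 regions rarely lay inside H3K27me3 in these cells. Of the H3K4me3 regions of at least 8000 bp, 24 of 235 (10.2%) touched an H3K27me3 region by at least 1 bp in the CGR8 lists, as did 28 of 184 (15.2%) in R1. At least 50% of the length was under H3K27me3 in 4.68% of them in CGR8 and 7.07% in R1, among them all 3 genes in each line. In CGR8, 3 of the 235 (1.28%) lay whole inside an H3K27me3 region, and these were the regions at Foxd3, Tfap2c and Bcl11a. In R1, 3 of 184 (1.63%) did, namely Foxd3, Bcl11a and a region on chromosome 2 from 147008601 to 147016800. Tfap2c missed this count in R1 by its first 200 bp. Among narrower H3K4me3 regions the share lying whole inside was 22.7% in CGR8 and 23.1% in R1. A region can lie whole only inside an H3K27me3 region at least as wide, so the wide and narrow shares are not like for like. The median H3K27me3 width was 7600 bp in CGR8 and 6400 bp in R1. The windows were picked for long overlap of the marks, so the members' place in these counts follows from that choice. The limit of 8000 bp was chosen after the widths of the members were seen. From 7000 bp, 7 of 421 regions lay whole inside H3K27me3 in CGR8, 3 of them in the members' windows. In R1, 10 of 334 did, 2 of them in those windows. The shares were not tested.

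Among these wide regions the members stood in the lower part by score per kb. In CGR8 the score per kb was 340 at Foxd3, 248 at Tfap2c and 248 at Bcl11a, ranks 146, 188 and 187, against a median of 409 over all 235. In R1 it was 272 at Foxd3, 264 at Tfap2c and 259 at Bcl11a, ranks 138, 141 and 145, against a median of 378 over all 184. In the wide regions without H3K27me3 the median was 411 per kb in CGR8 (211 regions) and 406 in R1 (156 regions). All 6 member values were below these medians and above the lowest 10% of wide regions, which ended at 162 per kb in CGR8 and 161 in R1.

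Stretches of at least 7000 bp numbered 7 (0.111%), of which 4 were not members. The longest, on chromosome 18, lay near the members in its share of the H3K27me3 region and in score percentiles. It took 67.2% of its H3K27me3 region in CGR8 and 62.3% in R1, with H3K27me3 at score percentile 90.3 and 91.1 and H3K4me3 at 92.7 and 90.3 in CGR8 and R1. Of its H3K4me3 region it took less, 84.3% in CGR8 and 78.2% in R1, against 93.3% to 100% at the members. The 7.2 kb stretch on chromosome 2 took 37.1% and 43.4%, with H3K4me3 at percentile 62.8 and 70.5 in CGR8 and R1. On chromosome 13 from 40823401 to 40830400, a stretch of 7.0 kb took 32.4% and 29.2%. On chromosome 11 from 3042001 to 3049000, one of the same length took 9.54% and 9.56% of an H3K27me3 region of 73.4 kb in CGR8 and 73.2 kb in R1. The H3K27me3 score percentile was 99.01 in CGR8 and 99.04 in R1 on chromosome 13 and 99.99 in both lines on chromosome 11, and the H3K4me3 score percentiles of both ran from 72.8 to 76.4. No name is given to these positions.

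Between CGR8 and R1, the members' H3K4me3 regions differed little in width. The log2 ratio of widths (CGR8 over R1) was -0.03 at Foxd3, 0.03 at Tfap2c and -0.03 at Bcl11a, and 78.3% to 78.4% of 21972 pairs with a single partner were at least as far from 0. Widths lie on a grid of 200 bp, so a single window is a larger ratio at the median width of 2000 bp than at the members. The score percentiles differed (CGR8 minus R1) by 3.0, -1.51 and -2.02 points, at a median size of 2.84 points over the pairs. For H3K27me3 the log2 width ratio was 0.19 at Foxd3 and 0.19 at Tfap2c, with 65.4% and 65.5% of 8167 pairs as far or farther from 0. At Bcl11a it was -1.01, which 10.3% of pairs reached or passed in size, whatever their sign. The median H3K27me3 width was 7600 bp in the CGR8 list and 6400 bp in the R1 list. The ratio at Bcl11a ran against that difference, and those at Foxd3 and Tfap2c ran with it. The H3K27me3 score percentiles differed (CGR8 minus R1) by -3.33 points at Foxd3, 1.30 at Tfap2c and -6.90 at Bcl11a. The median size over the pairs was 7.70 points. For both marks the pairs were not matched to the members by width or score percentile. They therefore do not show whether the members differed less than regions like them. With 1 library of each line and mark, a difference between the lines has no replicate check.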

How the data were processed

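H3K27me3 and H3K4me3 were mapped in 4 libraries, 1 of each line and mark. The authors deposited 1 region list per library, holding a position and a score per region, with no unit or formula stated. Bowtie2 2.0.2, SICER 1.1, bedtools 2.20.1 and build mm9 are named, per the submitters' processing notes, without order or settings. A calling threshold and control library are not stated there. The labels disagree on the supplier of the H3K27me3 antibody. Total depth is unknown, and the mean reads per 200 bp window were recovered from the scores (matched within 1e-06).

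Starts were counted from 1. Stretches were the bases called for both marks in both lines. Scores served to rank regions within 1 list, and a percentile is the share of the list with a lower value. Groups were the marks, with the lines as replicates (CGR8 1, R1 2), and the labels name no separate cultures. No test was run: 2 libraries against 2 cannot go below an exact two-sided permutation p of 0.333. The intersection was tested on simulated lists, and 200 of 200 planted stretches were recovered. In these lists the lines shared their H3K27me3 regions, and each planted stretch was a whole CGR8 H3K4me3 region. Ends set by R1 or by H3K27me3 alone were not tried. Members, comparators and gene lists were chosen with earlier results of these data known. The genes described by their marks are the 3 members, and 8 related genes are named for their promoters only. The other 4 stretches of at least 7000 bp, 1 above and 3 below the members in length, are comparators by position. Computations used Python 3.11.15, numpy 2.4.6, scipy 1.17.1, pandas 2.3.3 and matplotlib 3.10.9.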

Additional observations from a re-analysis of the deposited data

How the results depend on the processing

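Merging regions less than 1000 bp apart lengthened the Foxd3 stretch to 11.4 kb and put it at rank 1, since the long H3K4me3 region joined the shorter one on its left, and put Tfap2c and Bcl11a at rank 4. Scores per kb in place of scores gave mean percentiles of 88.0, 96.5 and 83.9 for H3K27me3 and of 60.4, 56.3 and 56.1 for H3K4me3 at Foxd3, Tfap2c and Bcl11a. Leaving out either line gave lengths of 8.2 to 8.4 kb at Foxd3, 8.6 to 9.0 kb at Tfap2c and 8.6 to 8.8 kb at Bcl11a, and ranks of 1 to 2 for Tfap2c and for Bcl11a. The mean share of wide H3K4me3 regions lying whole inside H3K27me3, 1.45% at 8000 bp and above, was 2.33% from 7000 bp, 3.22% from 6000 bp and 2.85% with regions merged, 3 alternatives added after the data were seen. Over all alternatives, 58 values were unchanged or moved by less than the SD between the lines, and 19 moved by at least that SD. For shares and score percentiles, leaving out a line could not count as a move. A single line always lies nearer to the mean of both lines than their SD. None of the 19 came from keeping the higher-scoring 50% of each list, H3K4me3 regions with at least 50% of their length inside H3K27me3, autosomes or lists of equal length. The filters by score, overlap and chromosome kept every region that holds a long stretch, so the stretch lengths could not change under them. Both marks were mapped in each line, but no paired test was run, as no result comes from a test. Total reads are not given, so absence from a list means only that no region was called. Neighbouring regions were at least 800 bp apart for H3K27me3 and 400 bp for H3K4me3, so the bounds depend on how gaps were joined.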

Other observations

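Outside the 3 windows, R1 held 1 H3K4me3 region of at least 8000 bp whole inside H3K27me3, on chromosome 2 from 147008601 to 147016800. It was 8.2 kb wide with a score of 471, at percentile 54.0 of the R1 list, where Foxd3 and Bcl11a stood at 90.3. In CGR8 the same bases held 3 separate H3K4me3 regions of 2.0, 3.0 and 2.4 kb. The H3K27me3 region around it stood at score percentile 99.3 in CGR8 and 99.2 in R1. The position was chosen after its values were seen.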
